A study of Mus musculus with 4 samples.

Results

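Dentate granule nuclei were taken from single-nucleus RNA sequencing libraries of the mouse hippocampus by the transcripts they carried. A barcode was kept with at least 600 unique molecular identifiers (UMIs, 1 per captured transcript) and at most 5% of UMIs from the mitochondrial genome, which left 47103 barcodes. A kept barcode was a member when its summed UMIs of Prox1, Glis3, Maml2, Rfx3, Dock10, Stxbp6, Pdzd2 and Chst9 reached 4. Those UMIs had to come from at least 2 of the 8 genes and be at least 2 times the summed UMIs of 8 genes of other cells (Grik4, Trps1, Ccbe1, Man1a, Galntl6, Gm2164, Slc1a3 and Mertk). In all, 6106 of the 47103 barcodes were members. All mice carried ArcCreERT2::eYFPflx, in which a recombinase under control of Arc can switch on a yellow fluorescent reporter in neurons active at the time of labelling. There were 2 trained and 2 untrained libraries, from 2 mice per group. The trained mice had learned active place avoidance, a task in which an animal on a rotating arena avoids a zone paired with shock. Tissue was collected 3 days after a test of retention, and recall was not prompted again. Nuclei were not separated by the reporter here, so members are granule nuclei whether or not they had been labelled.

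Dentate granule cells are the principal excitatory neurons of the dentate gyrus, the entry station of the hippocampal circuit. They receive input from the entorhinal cortex and send mossy fibres, with large and zinc-rich terminals, to CA3 pyramidal cells and to mossy cells of the hilus. They fire sparsely and are known for a part in separating similar memories. Prox1 is the homeobox gene that sets and keeps granule cell identity.

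The libraries differed in depth, and Trained replicate 1 stood apart as the shallowest. Members held a median of 790 UMIs in Trained replicate 1, 887 in Trained replicate 2, 1051 in Untrained replicate 1 and 1053 in Untrained replicate 2. Their summed UMIs were 431160, 1812249, 2075765 and 2568907 in the same order. Medians and sums were thus lower in both trained libraries than in both untrained ones, so depth went with training. Training comparisons made without thinning carry that difference in depth. Only 2 member barcodes were shared between libraries, by Trained replicate 2 and Untrained replicate 1. Each pair of libraries shared between 17 and 65 of the kept barcodes. Nothing in the labels ties a library to a single mouse, so p-values measure the spread between these libraries.

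Members made up 495 of 6019 kept barcodes in Trained replicate 1 (8.22%, exact 95% interval 7.54 to 8.95) and 1777 of 12205 in Trained replicate 2 (14.56%, 13.94 to 15.20). They made up 1703 of 16916 in Untrained replicate 1 (10.07%, 9.62 to 10.53) and 2131 of 11963 in Untrained replicate 2 (17.81%, 17.13 to 18.51). Intervals cover counting error only. The libraries of a group differed more from each other than the groups did, and the groups overlapped. The share was 11.4% ± 4.48 (SD, n = 2) in trained and 13.9% ± 5.47 (SD, n = 2) in untrained libraries. Its log2 difference was -0.29 (exact permutation test, two-sided, p = 0.667, where 2 against 2 libraries cannot go below 0.333). When every barcode was thinned to 600 UMIs and chosen again, the shares were 5.12%, 8.83%, 4.59% and 8.99%, and the log2 difference was 0.07 (exact permutation p = 1). Without Trained replicate 1 the difference was 0.12, so no direction can be read from the share.

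The rule's threshold lay within a continuous range of values. At a sum of exactly 4 rule UMIs there were 220, 531, 470 and 466 members in Trained replicates 1 and 2 and Untrained replicates 1 and 2, or 44.4%, 29.9%, 27.6% and 21.9% of members. Just outside, at a sum of 3 with the other conditions met, lay 249, 489, 664 and 403 barcodes. More of the members of Trained replicate 1 than of any other library therefore rested on the smallest sum the rule admits. The highest sum in a member was 14, 28, 36 and 42 UMIs in that order.

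The levels of the rule genes describe what chose the members, and they were not tested against other barcodes. Rfx3, a ciliary transcription factor, was the gene most often seen in 3 of 4 libraries: 68.7% to 76.9% of members carried a UMI of it, against 17.3% to 21.0% of all other kept barcodes. Maml2, a Notch coactivator, was seen in 58.2% to 77.2% of members and 10.8% to 14.7% of the others. Prox1 itself was seen in 24.0% to 28.1% of members and 4.64% to 6.34% of the others. Levels are given as CPM, the summed UMIs of a gene scaled to 1000000 UMIs of the same nuclei. Prox1 stood at 320, 286, 256 and 280 CPM in members of Trained replicates 1 and 2 and Untrained replicates 1 and 2. Among all other kept barcodes it stood at 82.2, 49.1, 47.0 and 48.0 CPM. Members thus carried Rfx3, Maml2 and Dock10 more often than Prox1, and no library had a majority of members with more than 4 of the 8 genes.

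CA1 and CA3 pyramidal nuclei were chosen for comparison by gates of the same form from 6 and 5 marker genes, giving 6239 and 1905 nuclei, none of them also a member. They are also counted among all other kept barcodes, so these classes share nuclei. Of 32229 genes outside the rule, 527 were higher in all 4 member sums than in each of the 12 sums of CA1, CA3 and all other kept barcodes. Ratios were taken after adding 10 CPM to every level, which lowers those of rare genes. On that scale 58 (0.18%) were higher by 1.5 times or more, and 9 by 2 times or more. In the other direction 321 genes were lower in all 4 member sums, 37 of them by 1.5 times and 11 by 2 times. These levels come from the cells that were chosen and are a description with no test.

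**Figure D1:**
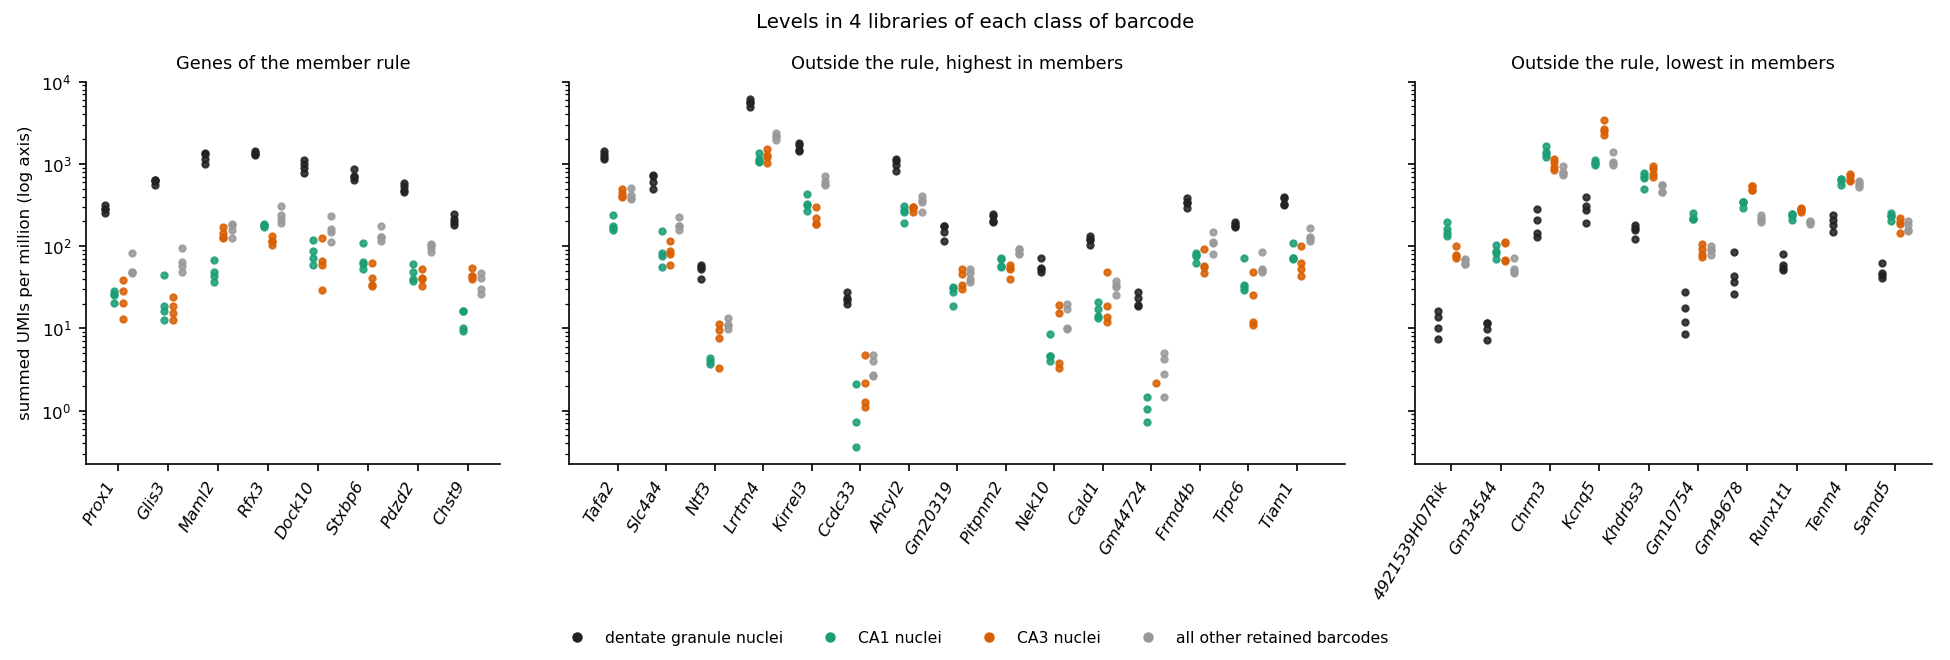
Summed CPM (log axis, values of 0 not drawn) of the 8 rule genes, the 15 genes outside the rule that stood highest in members and the 10 that stood lowest; each point is 1 of 4 libraries and colours are classes of barcode. Member points lie above all others in the first 2 panels and below all others in the last, which follows from how members and genes were chosen. Lrrtm4 is the highest at 4870 to 6150 CPM.

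Among the 15 genes that stood furthest above the other classes by this ratio were cell-surface and signalling genes. Lrrtm4, a leucine-rich adhesion protein of excitatory synapses, stood at 4870, 6150, 5460 and 5590 CPM in members of Trained replicates 1 and 2 and Untrained replicates 1 and 2. It stood at 1040 to 1340 in CA1 nuclei, 1020 to 1500 in CA3 nuclei and 1920 to 2370 in all other kept barcodes. Kirrel3, an adhesion molecule of the immunoglobulin family, stood at 1440 to 1770 in members and at 557 to 707 in all other kept barcodes. Both were thus among the more abundant transcripts of members. That members do not overlap the other classes in any of the 15 follows from the ratio that chose them. Tafa2, a secreted chemokine-like protein, stood at 1150 to 1430 in members, 156 to 239 in CA1 nuclei and 392 to 499 in CA3 nuclei. Slc4a4, a sodium bicarbonate cotransporter, stood at 492 to 726 in members and 156 to 226 in all other kept barcodes. Ntf3, the neurotrophin NT-3, was rare but separate, at 39.7 to 58.8 in members and at most 13.5 elsewhere. Ahcyl2, Trpc6 (a cation channel), Tiam1 and Frmd4b, Pitpnm2, Cald1, Nek10, Ccdc33 and the unnamed transcripts Gm20319 and Gm44724 completed the 15.

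The 10 genes that stood furthest below included receptors and channels of pyramidal cells. Chrm3, a muscarinic acetylcholine receptor, stood at 283, 130, 207 and 143 CPM in members of Trained replicates 1 and 2 and Untrained replicates 1 and 2. It stood at 1220 to 1650 in CA1 nuclei and 840 to 1130 in CA3 nuclei. Kcnq5, a potassium channel of the M-current, stood at 193 to 392 in members and at 2240 to 3420 in CA3 nuclei. In both genes the member of highest level was Trained replicate 1, the library with the fewest UMIs per member. Khdrbs3, an RNA-binding splicing regulator, stood at 121 to 181 in members and 452 to 950 elsewhere. Tenm4, an adhesion protein, Runx1t1, Samd5 and 4 unnamed transcripts (4921539H07Rik, Gm34544, Gm10754 and Gm49678) completed the 10.

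The label was checked on 12 genes known from granule cells and left out of the rule. Their summed level was 2500 to 2942 CPM in members, 943 to 1292 in CA1 nuclei, 906 to 1167 in CA3 nuclei and 1327 to 1844 in all other kept barcodes. Ahcyl2 made up a large part of that sum, at 828 to 1160 in members and 260 to 407 in all other kept barcodes. For 9 of the 12, the level was followed across kept barcodes that met the ratio, by their summed rule UMIs. C1ql2, Tdo2 and Lct were not followed. Ahcyl2 stood at 201 to 365 CPM at 0 rule UMIs and at 752 to 1318 at 8 or more. Trpc6 stood at 24.1 to 45.3 at 0 and at 104 to 213 at 8 or more, and C1ql3, a synaptic organiser of mossy fibre terminals, at 194 to 296 and 344 to 543. At 3 rule UMIs, just outside the rule, Ahcyl2 stood at 656 to 928 and C1ql3 at 293 to 537, so values within the range of members lay just outside it. Dsp (desmoplakin) was higher at 8 or more than at 0 in every library, and Calb1 (calbindin), Plk5 and Bcl11b in 3 of 4 libraries. In Trained replicate 1 these 3 were lower at 8 or more, going from 69.4 to 41.8, 27.2 to 20.9 and 211 to 146 CPM. That class held 42 barcodes there (median 1051 UMIs), so levels of the rarer genes, Dsp and Sema5b included, rest on few UMIs. Sema5b went against the label, at 31.1 to 47.6 at 0 and 10.8 to 20.9 at 8 or more, and Ntng1 was lower at 8 or more in 3 of 4 libraries.

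**Figure D2:**
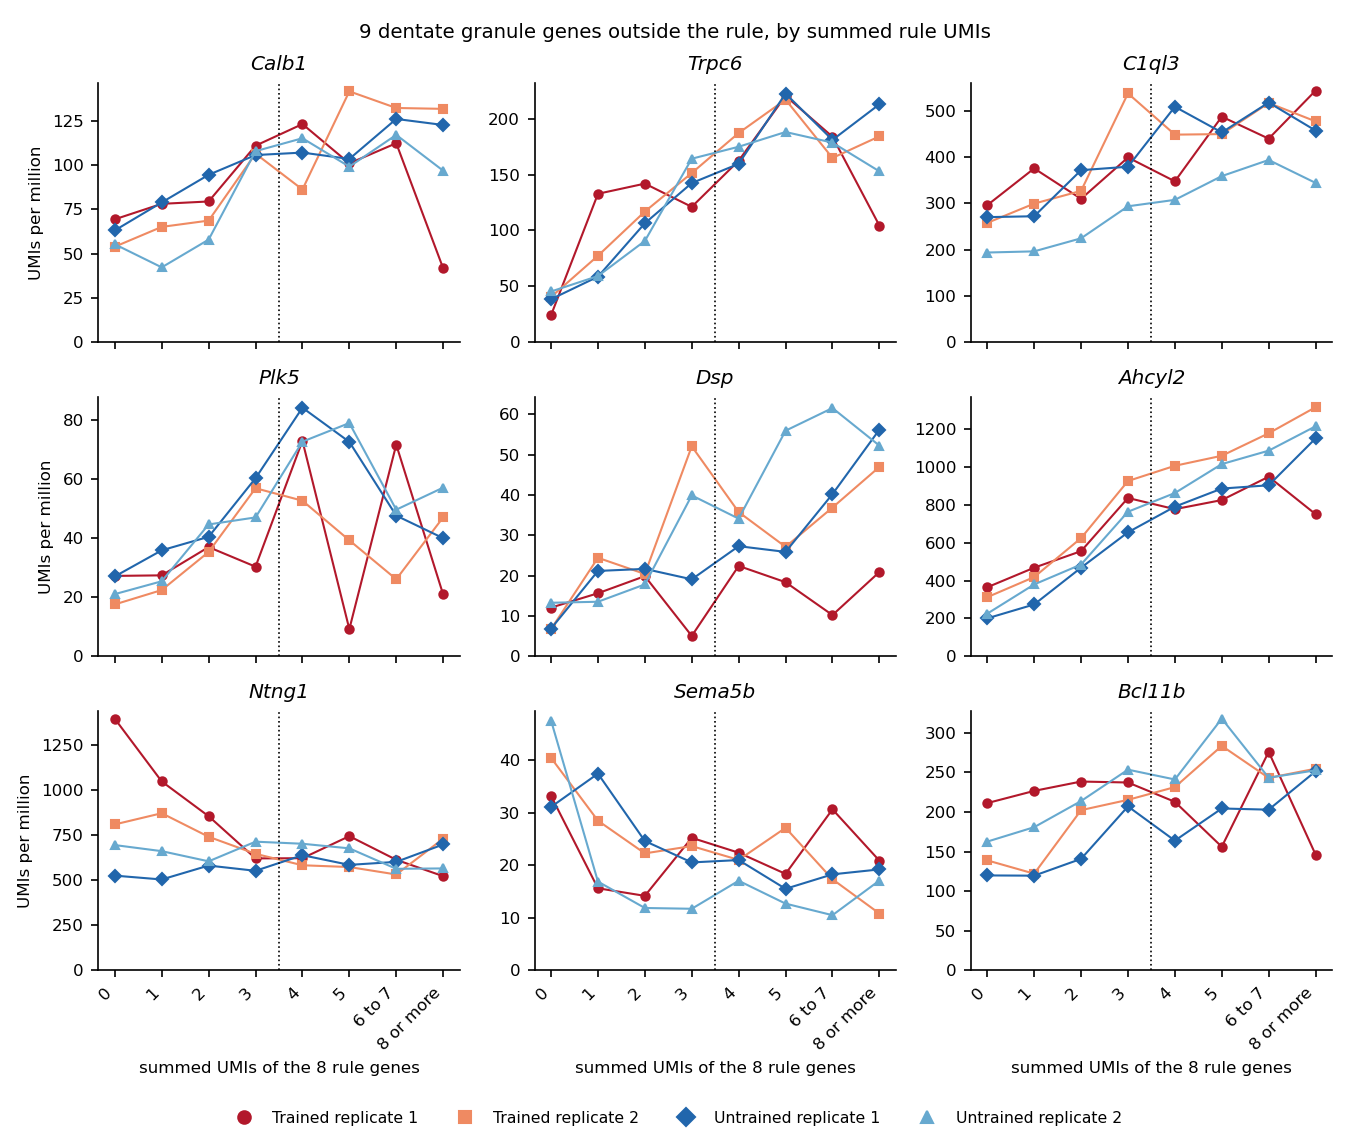
Level in CPM of 9 granule cell genes that the rule does not use, by the summed UMIs of the 8 rule genes, in each library; the dotted line marks the threshold of 4. Ahcyl2 climbs from 201 to 365 at 0 rule UMIs to 752 to 1318 at 8 or more, Sema5b does not climb in any library, and the rightmost point of Trained replicate 1 rests on 42 barcodes.

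Markers of other cells were also measured in members. CA1 markers, 3 of whose 6 genes the rule bars, summed to 258 to 469 CPM, against 6083 to 6994 in CA1 nuclei. CA3 markers, 3 of whose 5 genes the rule bars, summed to 643 to 749, against 4142 to 5599 in CA3 nuclei. Oligodendrocyte markers such as Mbp summed to 1224 to 1504 in members, 1113 to 1219 in all other kept barcodes and 2133 to 4225 in barcodes of 250 to 400 UMIs, which are too shallow to be kept. In every library they were higher in members than in all other kept barcodes. Thalamus markers summed to 961 to 1185 in members and 1146 to 1426 in all other kept barcodes, and astrocyte markers to 638 to 737 and 735 to 879. Inhibitory neuron markers summed to 385 to 596 in members and 990 to 1176 in all other kept barcodes. Microglia markers summed to 229 to 327 in members and 199 to 283 in all other kept barcodes. They too were higher in members in every library, though by little in Untrained replicate 1 (262.1 and 257.3). Between 55.4% and 61.6% of members held at least 2 UMIs of inhibitory, oligodendrocyte, precursor, microglia or endothelial markers. That share was not taken in other barcodes, so it shows nothing particular to members. Mossy cell markers summed to 19.1 to 31.3 in members and 19.0 to 32.1 in all other kept barcodes. Markers of immature granule neurons summed to 62.4 to 96.4, with Draxin and Eomes at 0 in all 4 libraries. All 7 oligodendrocyte markers had a log2 difference between trained and untrained members above 0 (median 0.24), with none called. No marker list of another cell type was at 0 in members.

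Genes of motile cilia, which ependymal cells lining the ventricles are known to express, were looked at after some alternatives of the training comparison called them. Spag16, a protein of the ciliary axoneme, stood at 90.5, 21.0, 4.34 and 24.9 CPM in members of Trained replicates 1 and 2 and Untrained replicates 1 and 2, from 39, 38, 9 and 64 UMIs. In all other kept barcodes it stood at 11.7 and 10.7 in trained libraries and 5.38 in Untrained replicate 1. Among those barcodes Spag16 was highest in Untrained replicate 2, above both trained libraries, so the groups overlapped there. Cfap299, another cilium gene, stood at 104, 27.0, 7.71 and 33.5 in members. Dnah6, Dnah11 and Dnah12, dynein heavy chains of cilia, each stood highest in members of Trained replicate 1 (41.7 to 62.6) and lowest in those of Untrained replicate 1 (1.93 to 4.34). The other libraries lay between, so 1 library of each group stood apart. In 3 of 4 libraries all 5 genes were higher in members than in all other kept barcodes, and Untrained replicate 1 was the exception for Spag16, Cfap299 and Dnah6. Rfx3, a rule gene, is itself a regulator of cilium genes. Their part in the training comparison was not tested.

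Training was then compared in members, asking which transcripts of granule nuclei differed 3 days after the retention test. A single gene passed: of 12403 genes tested, 1 (0.00806%) was called at an adjusted p of 0.05, and it was higher in trained libraries. No gene was called lower. At an unadjusted p of 0.05 there were 686 genes (5.53%), 244 higher (1.97%) and 442 lower (3.56%). DESeq2 called the same gene alone, with 120 genes at an unadjusted p of 0.05.

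The called gene was Ttr, which encodes transthyretin, a carrier of thyroid hormone and retinol that the choroid plexus makes in large amounts. It stood at 995 and 1040 CPM in trained and at 332 and 441 in untrained members. The groups did not overlap, and Ttr rose by 1.41 on the log2 scale (SE 0.16, adjusted p = 0.00197 by the quasi-likelihood test of edgeR, adjusted after Benjamini and Hochberg). Without Untrained replicate 1 the log2 difference was 1.21 and no longer passed (edgeR adjusted p = 0.157), and without Trained replicate 1 it was 1.47 and passed. Other nuclei gave differences of like size. The log2 value was 1.53 in CA1 nuclei, 1.80 in CA3 nuclei and 1.47 in all other kept barcodes, where it did not pass (edgeR adjusted p = 0.12), and members differed from all other kept barcodes by -0.04 (edgeR unadjusted p = 0.792). Ttr was the only gene called in CA1 nuclei (0.00783% of genes) and in CA3 nuclei (0.0104%). In barcodes of 250 to 400 UMIs it was 1.07 and did not pass (edgeR adjusted p = 0.139), while 771 other genes (5.01%) were called there. Between members and all other kept barcodes, 1 gene (0.00682%) was called for a different training effect. It was Ccbe1, whose UMIs the rule limits in members, so nothing is read from that call.

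Ttr counts also differed little with depth. A barcode of 250 to 400 UMIs held 0.731 Ttr UMIs on average in Trained replicate 1, and a member held 0.773, 0.984 and 0.911 at 600 to 800, 800 to 1200 and above 1200 UMIs. In Untrained replicate 1 the values were 0.322 and then 0.350, 0.364 and 0.480. A member thus carried about as much Ttr as a barcode with far fewer UMIs of the same library. Within members, Lrrtm4 went from 3.17 to 4.03 UMIs per nucleus in the shallowest class to 5.84 to 10.3 in the deepest. Barcodes of 250 to 400 UMIs were not chosen by the rule, so the level of Lrrtm4 in them is not comparable with that in members. Of the 8 choroid plexus markers 5 were tested, all 5 above 0 with a median log2 difference of 0.78, and 1 (Ttr) was called. Over all genes tested the median was 0.01. Choroid plexus markers summed to 1278 and 1277 CPM in trained and 477 and 612 in untrained members, and to 2813, 4244, 1287 and 2049 in barcodes of 250 to 400 UMIs. The part of RNA outside nuclei in the Ttr difference was not tested.

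**Figure D3:**
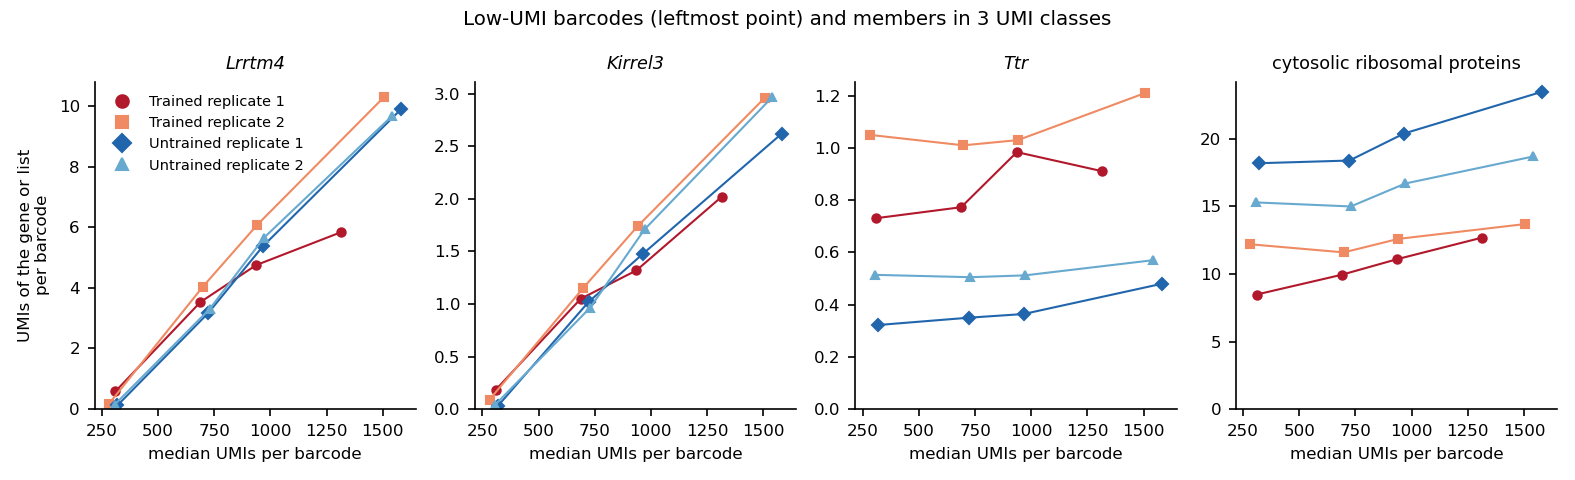
UMIs per barcode of Lrrtm4, Kirrel3, Ttr and summed cytosolic ribosomal proteins against the median UMIs of each class, for barcodes of 250 to 400 UMIs (leftmost point) and members in 3 UMI classes, in each library. Among members Lrrtm4 and Kirrel3 climb with UMIs (their leftmost point is from barcodes the rule did not choose), whereas Ttr stays between 0.322 and 0.570 in untrained and between 0.731 and 1.21 in trained libraries.

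The next genes did not pass. Ranked genes were taken only from those whose groups did not overlap, so that separation was fixed by the choice. Closest were Rnf121, an E3 ubiquitin ligase of the endoplasmic reticulum, and the unnamed transcript Gm5087, which was picked out after its values were seen. Gm5087 stood at 4.64 and 8.83 CPM in trained and 29.9 and 30.8 in untrained members (log2 -1.90, SE 0.33, edgeR adjusted p = 0.152). Rnf121 stood at 37.1 and 38.6 CPM in trained and 81.9 and 158 in untrained members (log2 -1.63, SE 0.29, edgeR adjusted p = 0.152). The groups did not overlap, but the untrained libraries were far apart. Rnf121 passed when any 1 of the 4 libraries was left out, with log2 values from -2.03 to -1.06, when no filter on low counts was used and when members were thinned. It also passed with same-numbered libraries as a block (log2 -1.77, edgeR adjusted p = 0.0164). It did not pass at 1000 UMIs, where its log2 value was -1.47 (edgeR adjusted p = 0.303). Nor did it pass with the DESeq2 Wald test (log2 -1.63, adjusted p = 0.0601) or with DESeq2 size factors (log2 -1.63, edgeR adjusted p = 0.143). With a library left out, the lone library of its group is taken to vary like the others. In all other kept barcodes its log2 difference was -1.42. Rnf121 was therefore lower in trained libraries of every one of these fits, in members and beyond them. At a rule sum of 6, a ratio of 4 or 1% mitochondrial UMIs, only Ttr was called. The same held without the 5% of members with the most UMIs, or without members with other cells' markers.

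Nr4a3, an activity-induced nuclear receptor, stood at 39.4 and 30.9 CPM in trained and 14.9 and 14.4 in untrained members (log2 1.20, SE 0.27, edgeR adjusted p = 0.818), from 17, 56, 31 and 37 UMIs. In all other kept barcodes its log2 difference was 0.97. Its groups did not overlap, as the ranking required. This held for 15.8% of all genes tested in this direction and 20.4% in the other. Thsd4, an extracellular matrix protein, stood at 34.8 and 37.5 against 19.3 and 15.6 CPM. Fhit, a diadenosine triphosphate hydrolase, stood at 260 and 251 against 149 and 176. Further down the ranking on the higher side were Gpr141, Enpp2, Sh3rf1, Ecrg4, Wdr43, Neat1, Cntnap5c, Znrf3, Thsd7b, Luzp2 and Alg9, with log2 differences from 0.55 to 3.38 and adjusted p from 0.818 to 0.866 by edgeR. The largest of these, Gpr141, rested on 4, 12, 2 and 1 UMIs.

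On the lower side Rab3a, a GTPase of synaptic vesicle release, stood at 111 and 130 CPM in trained and 229 and 193 in untrained members (log2 -0.75, SE 0.17, edgeR adjusted p = 0.818). Stmn1, a microtubule regulator, stood at 151 and 147 against 297 and 212. Synpr, a synaptic vesicle protein abundant in mossy fibre terminals, stood at 262 and 296 against 407 and 450. Synpr was separate between groups in members, as the ranking required, whereas in all other kept barcodes its log2 difference was 0.09. The difference between those comparisons was -0.61 (edgeR unadjusted p = 3.35e-05) and did not pass adjustment. Bri3, Gapdh, Cckbr, Plekho1, Eif1, Ndufa13, Hcfc1r1, Ckmt1, Etfb and Sncb followed, with adjusted p of 0.818 or 0.866 by edgeR. Cckbr, the cholecystokinin B receptor, rested on 0, 1, 16 and 17 UMIs.

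**Figure D4:**
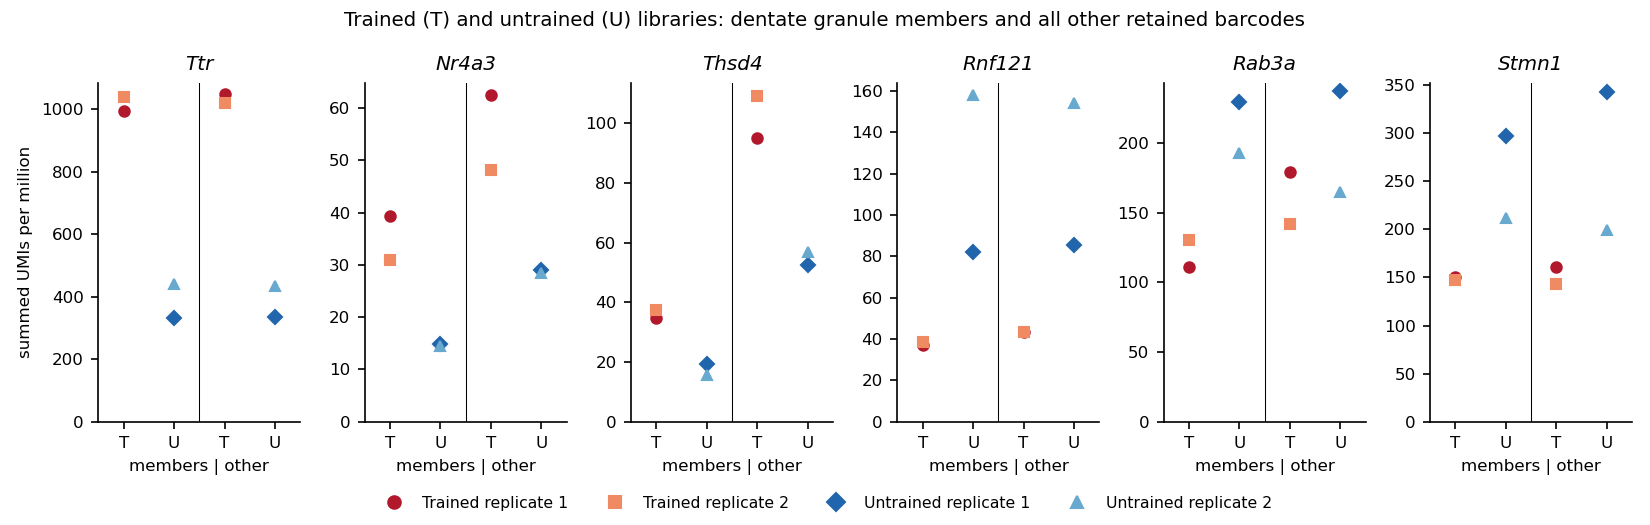
Summed CPM by library in members (left of each panel) and in all other kept barcodes (right), for the 3 genes of smallest p on the higher side (Ttr, Nr4a3, Thsd4) and on the lower side (Rnf121, Rab3a, Stmn1). In members the trained and untrained libraries do not overlap in any of the 6, which follows from how the genes were chosen. Only Ttr passed the test, and the log2 differences of all 6 have the same sign in the other barcodes.

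Genes of neuronal activity were described next, since the reporter in these mice is tied to Arc. None of 18 tested immediate early genes and none of 11 tested late activity genes was called, with median log2 differences of -0.05 and 0.05. Without Trained replicate 2 the immediate early median was 0.28, so it has no settled direction. Arc, a cytoskeletal regulator of AMPA receptor traffic, stood at 20.9 and 23.7 CPM in trained and 22.6 and 26.1 in untrained members (log2 -0.06, SE 0.27). Egr1, an activity-induced transcription factor, stood at 46.4 and 43.6 against 55.4 and 56.1 (log2 -0.30, SE 0.20). Fos and Npas4 rested on at most 18 UMIs in any library. Homer1, a postsynaptic scaffold, and Bdnf, a neurotrophin, had log2 differences of 0.17 (SE 0.16) and 0.05 (SE 0.20). At these counts an absence of difference in the rarer of these genes cannot be read from the test. Nr4a1, a relative of Nr4a3, stood at 44.1 and 28.1 against 15.9 and 23.0 (log2 0.74, SE 0.29, edgeR adjusted p = 0.866).

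Kinases studied in memory maintenance were close to 0. None of 17 tested was called, 13 had a log2 difference above 0 and the median was 0.06. Prkcz, an atypical protein kinase C whose short form is PKMzeta, stood at 104 and 125 CPM in trained and 122 and 125 in untrained members (log2 -0.04, SE 0.17). Prkci, its close relative, stood at 37.1 and 43.6 against 33.7 and 34.3 (log2 0.33, SE 0.22). Wwc1, the scaffold KIBRA, had a log2 difference of 0.135 (SE 0.185) and Camk2a, a synaptic calcium-dependent kinase, 0.12 (SE 0.15). Prkca, a classical protein kinase C, had the smallest p of the list, at 485 and 486 against 335 and 442 CPM (log2 0.34, SE 0.16).

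Receptor, channel and synaptic genes were likewise uncalled. Of 17 AMPA and NMDA receptor genes and partners, 12 were above 0 and the median was 0.05. Gria1, an AMPA receptor subunit, stood at 2200 and 2600 against 2210 and 2670 CPM, and Grin2b, an NMDA receptor subunit, at 1660 and 1700 against 1680 and 1670. Of 14 GABA receptor genes, Gabrg3, a subunit of GABA-A receptors, stood at 295 and 232 against 199 and 194 CPM (edgeR adjusted p = 0.866). The medians were 0.07 for GABA receptors, 0.06 for 34 potassium channel genes, 0.03 for 25 sodium and calcium channel genes and 0.07 for 36 synaptic adhesion genes. They were 0.13 for 13 kainate and metabotropic glutamate receptor genes and 0.004 for 28 genes of vesicle release and mossy fibre transmission, among them Cck and Npy, neuropeptides, below 0. The medians of AMPA and NMDA receptors, GABA receptors and vesicle genes changed sign with 1 library left out (lowest -0.03). Corticosteroid receptors and response genes (10 tested) had a median of -0.03, which was -0.19 to 0.24 with a library left out, with Sgk1, a kinase induced by these steroids, at 88.1 and 102 against 66.0 and 85.6 CPM.

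Housekeeping groups had medians below 0 without any called gene. Of 82 cytosolic ribosomal protein genes 79 were below 0, with a median log2 difference of -0.35, against 6080 of 12403 (49.0%) and a median of 0.01 over all genes. Of 72 nuclear genes of oxidative phosphorylation 70 were below 0 (median -0.36), as were all 13 mitochondrial genome transcripts (median -0.41). In 64 of the 82 ribosomal protein genes (78.0%) both trained libraries were below both untrained ones, against 20.4% of all genes. Chaperones had 17 of 18 and glycolysis 13 of 16 below 0, with medians of -0.23 and -0.19. Gapdh, a glycolytic enzyme, stood at 209 and 237 CPM in trained and 365 and 342 in untrained members, and Fth1, the ferritin heavy chain, at 1160 and 1480 against 2020 and 1790. With DESeq2 size factors the same 4 medians, from ribosomal proteins to chaperones, were -0.34, -0.36, -0.40 and -0.23. Without Trained replicate 1 the medians of ribosomal proteins, oxidative phosphorylation and the mitochondrial genome were -0.35, -0.35 and -0.34. Without Untrained replicate 1 the medians of oxidative phosphorylation and glycolysis were -0.16 and -0.08, and without Untrained replicate 2 they were -0.54 and -0.31.

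These medians were below 0 in the other barcodes too. Taken from separate fits, they were smaller in size in CA1 and CA3 nuclei than in members, by little for the mitochondrial genome. In CA1 nuclei they were -0.298 for ribosomal proteins, -0.214 for oxidative phosphorylation and -0.393 for the mitochondrial genome. In CA3 nuclei the same medians were -0.223, -0.288 and -0.37. Chaperones and glycolysis had -0.105 and -0.0659 in CA1 nuclei and -0.121 and -0.183 in CA3 nuclei. In all other kept barcodes they were -0.38 for ribosomal proteins, -0.38 for oxidative phosphorylation and -0.48 for the mitochondrial genome. In barcodes of 250 to 400 UMIs they were -0.75, -0.76 and -0.67. Members and pyramidal nuclei were also compared in a single fit. Medians of members minus CA1 nuclei were then -0.04, -0.07 and 0.03 for the same lists in that order. Against CA3 nuclei they were -0.12, -0.04 and -0.003. No gene of these lists was called in either comparison. Ribosomal protein UMIs summed to 12270 and 12270 CPM in trained and 17400 and 14210 in untrained members, and to 26920, 41280, 56780 and 49400 in barcodes of 250 to 400 UMIs. Per barcode, libraries held 8.48 to 18.2 such UMIs at 250 to 400 UMIs and 9.94 to 18.4 in members of 600 to 800 UMIs and 12.7 to 23.5 in members above 1200 UMIs, so the count moved less than the UMIs of the barcodes did. The part of RNA outside nuclei in these medians was not tested. The rRNA-like transcripts Gm42418, AY036118 and Cmss1 were also below 0, with Gm42418 at 3540 and 2740 against 4830 and 4670 CPM.

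**Figure D5:**
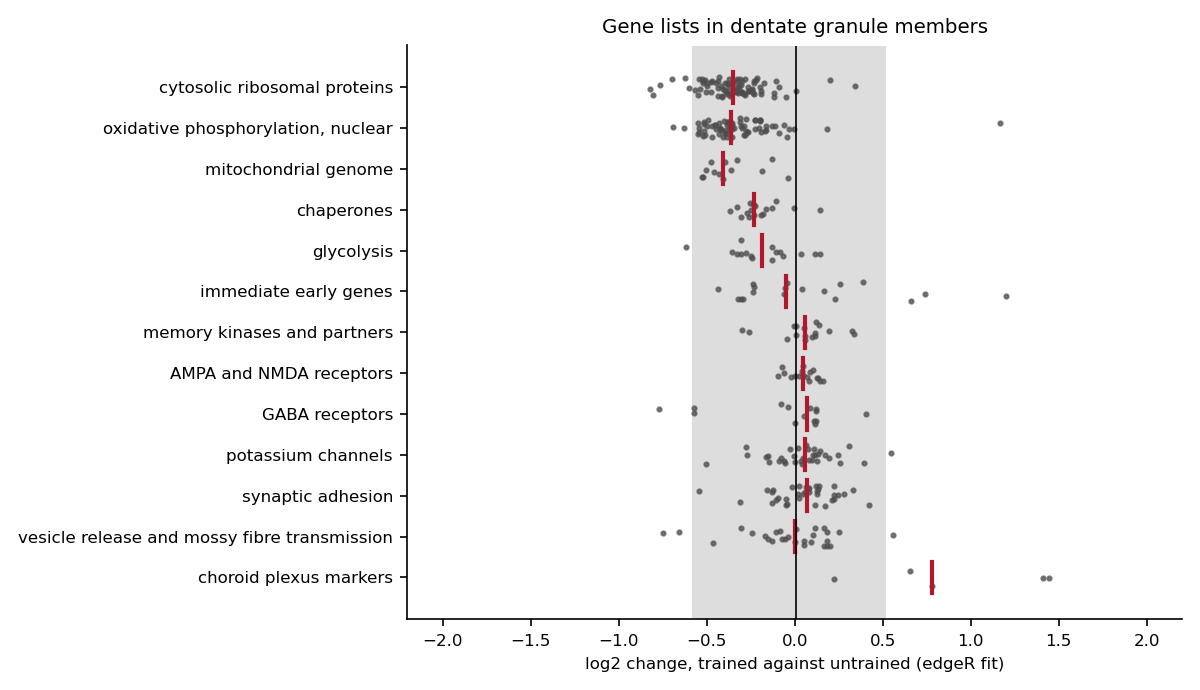
Log2 difference between trained and untrained members for each tested gene (points) of 13 lists, with list medians in red; the grey band spans the 5th to 95th percentile of all 12403 genes (-0.58 to 0.51) and the black line their median. Ribosomal, oxidative phosphorylation and mitochondrial lists sit left of 0 with medians of -0.35 to -0.41, the neuronal lists near 0 and choroid plexus markers to the right.

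Whether training differed between granule and pyramidal nuclei was asked directly, with both classes of each library in 1 fit. Against CA1 nuclei 0 of 13116 genes were called by edgeR (564 at an unadjusted p of 0.05). On simulated data this fit recovered 19 of 99 genes changed 2 fold, so differences of that size could be missed. Without Trained replicate 2 the count was 53. Against CA3 nuclei 12 of 10913 genes (0.11%) were called, 11 of them with the higher difference in members. Adarb2, an RNA editing family member, differed most surely: members stood at 1280, 1370, 1080 and 1270 CPM in Trained replicates 1 and 2 and Untrained replicates 1 and 2, and CA3 nuclei at 480, 299, 564 and 613. The log2 difference of members minus CA3 was 0.93 (SE 0.16, edgeR adjusted p = 2.57e-05), from 0.19 in members and -0.68 in CA3 nuclei. The larger part of that number came from CA3 nuclei, where both trained libraries were below both untrained ones but the difference alone did not pass. Vav3, a guanine nucleotide exchange factor, stood at 288, 177, 194 and 194 CPM in members and 144, 90.1, 202 and 216 in CA3 nuclei (difference 1.12, edgeR adjusted p = 0.00078). Cntn5, a contactin of neuronal adhesion, stood at 844, 813, 674 and 760 in members and 278, 125, 261 and 254 in CA3 nuclei (difference 0.86, edgeR adjusted p = 0.0124). Pde7b, a phosphodiesterase of cyclic AMP, stood at 262, 280, 285 and 251 in members and 101, 44.5, 128 and 103 in CA3 nuclei (difference 1.09, edgeR adjusted p = 0.02). In all 3 the lowest CA3 value was that of Trained replicate 2. The others were Cntn4, Rnf220, Gabrg3, Zfhx3, Unc13c, Cit and Lhfpl3, and, in the other direction, Gm49602, which stood at 0 in CA3 nuclei of both untrained libraries. None of the 12 passed the training comparison within members, and none of the 11 passed it within CA3 nuclei. In each of the 11 the log2 difference in CA3 nuclei was below 0 and larger in size than that in members. All 12 calls were lost without the library block and without either untrained library, and without Trained replicate 2, 28 other genes were called.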

How the data were processed

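The authors deposited UMI counts per gene and barcode. Per the file headers, Cell Ranger 7.0.0 wrote them. The submitters' processing notes name Cell Ranger 8, STAR and GRCm39, a different version. Per the labels' protocols, nuclei were prepared with a droplet kit from 10x Genomics that reads 3' ends. The 4 libraries held 32285 features and 23155826 to 39749125 UMIs. No doublet caller was run, and no genome position is used. Nuclei carrying the reporter were not analysed apart.

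Counts were summed over members per library, and edgeR 4.0.16 in R 4.3.3 was fitted by quasi-likelihood after TMM scaling, on genes that filterByExpr kept, with Benjamini-Hochberg adjustment at 0.05 over all genes tested. CPM divides by all UMIs of the summed barcodes. The standard error is the log2 difference over the square root of F. Differences between classes used an interaction with library as a block. Shares used exact permutation. DESeq2 1.42.0, Python 3.11.15, numpy 2.4.6, scipy 1.17.1, pandas 2.3.3 and matplotlib 3.10.9 were also used. On simulated data, the training fit recovered 45 of 97 genes changed 2 fold and 91 of 99 changed 4 fold, with 3 false calls among 12105 genes. The interaction with CA1 nuclei recovered 19 of 99 and 68 of 100, with 0 false calls among 12292 genes.

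Genes named were the 15 of smallest p in each direction with separate groups, leaving out mitochondrial, ribosomal, predicted and sex genes, 14 genes of memory and activity, and for each list described members of smallest p (up to 3). For levels, the 15 genes of the largest ratio of the lowest member library over the highest other were named, with 10 CPM added to both. Some genes that the rule names are not reported here. The 10 lowest genes, the cilium genes and genes called in other fits were named after their values were seen. The members and lists were chosen with earlier results of these data known. Alternatives varied the test, scaling, filter, block, libraries, depth, UMI minimum and rule, or left out members with the most UMIs or with UMIs of other cells' markers. The comparison with all other kept barcodes, the barcodes of 250 to 400 UMIs and the UMI classes were chosen after seeing the data.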

Additional observations from a re-analysis of the deposited data

Results flagged for a closer look

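The effect of training differed between granule and CA3 nuclei by a test of the difference itself for 12 genes. Members minus CA3 nuclei, the log2 differences were 0.93 for Adarb2, 1.12 for Vav3, 0.86 for Cntn5, 0.81 for Cntn4, 0.97 for Rnf220, 0.87 for Gabrg3, 1.09 for Pde7b, 1.14 for Zfhx3, 1.41 for Unc13c, 1.04 for Cit and 0.995 for Lhfpl3 (adjusted p from 2.57e-05 to 0.047 by edgeR). The remaining gene, Gm49602, went the other way (edgeR adjusted p = 0.0371): it stood at 20.9, 8.28, 10.1 and 8.95 CPM in members and 9.59, 14.1, 0 and 0 in CA3 nuclei, in the order Trained and then Untrained replicates 1 and 2. In each gene other than Gm49602, the log2 difference in CA3 nuclei was below 0 and larger in size than that in members. Neither passed on its own. The groups hold 2 libraries each, so no library could be tested as an outlier. With at least 1000 UMIs per nucleus 4 of the 12 were called, without Trained replicate 1 it was 8 of them, and without any 1 of the other libraries, or without the library block, none.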

How the results depend on the processing

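A marker filter left out members with at least 2 UMIs of inhibitory, oligodendrocyte, precursor, microglia or endothelial markers, which were 55.4% to 61.6% of members. The training call was 1 gene, Ttr, with DESeq2, its size factors, 1000 UMIs, a sum of 6, a ratio of 4 and 1% mitochondrial UMIs. The call was also Ttr alone with the marker filter, and without the 5% of members with the most UMIs. It was 7 genes with no filter, 2 when thinned, 2 with the replicate block and 1 to 50 with a library left out (50 when Trained replicate 2 was dropped, 43 for Untrained replicate 2, 7 for the first trained library, and for the first untrained one only Rnf121). Cilium genes were among the added higher calls. With no filter Spag16 was 1.37, Cfap299 1.17 and Dnah6 1.63, and these with Dnah11 and Dnah12 were 2.26 to 3.6 when the second library of either group was dropped. Same-numbered libraries did not deviate together (correlation -0.03), so the block shares only a number; it added Rnf121 (log2 -1.77, edgeR adjusted p = 0.0164). Against CA1 the count of 0 became 1 with no filter and 1 at 1000 UMIs, and 0 to 53 with a library left out. Against CA3 the 12 became 4 with no filter, 0 without the library block, 4 at 1000 UMIs and 0 to 28 with a library left out. Against all other kept barcodes the 1 (Ccbe1, a rule gene) became 4 with no filter, 0 without the block, 6 with size factors and 0 to 77 with a library left out. The share's log2 difference of -0.291 was 0.0658 when thinned, -0.823 at a sum of 6 and -0.703 to 0.121 with a library left out. Of 984 alternative values for 101 named genes, 926 kept direction and side of the threshold, 27 newly passed, 1 (Ttr) no longer passed and 30 changed sign, none of them past the threshold. Thinning gave Arc 0.224, Grm8 0.00892 and Ftl1 0.0312. At 1000 UMIs Bdnf was -0.177, Prkcz 0.153, Grin2b -0.00308, Pcdh8 -0.218 and Dcx 0.0037. Gria1 was 0.0033 with DESeq2 and 0.00386 with its size factors, and Grin2b -0.00361 with no filter. With a library left out, log2 differences ran from -0.248 to 0.0583 for Arc, -0.0985 to 0.783 for Fos, -0.293 to 2.86 for Npas4, -0.0253 to 0.224 for Bdnf and -0.261 to 0.0589 for Prkcz. They ran from -0.0547 to 0.36 for Wwc1, -0.0474 to 0.244 for Camk2a, -0.167 to 0.151 for Gria1, -0.0301 to 0.0685 for Grin2b, -0.892 to 0.204 for Rgs2 and -0.309 to 0.3 for Cnih3. They ran from -0.187 to 0.834 for Ddit4, -0.467 to 0.042 for Ftl1, -0.0436 to 0.488 for Rian, -3.73 to 0.151 for Tac2 and -0.489 to 0.121 for Dcx. The cause of these changes was not tested. Rare genes are limited by depth, since members of Trained replicate 1 hold 431160 UMIs in all.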
